A study of Mus musculus with 2 samples.

Results

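The proteasome genes of mouse calf muscle were compared between a Cry2scko and a Cry2flox library. Members were the protein-coding genes with the symbol stem Psma to Psmg followed by a number, without the immunoproteasome genes Psmb8, Psmb9 and Psmb10. This gave 47 of the 34745 genes in the count table, spread over 16 chromosomes. By role there were 8 genes of the alpha ring, 8 of the beta ring, 6 ATPases of the regulatory cap, 11 other cap subunits, 6 genes of activators and an inhibitor, and 7 assembly chaperones. The last match, Psmc3ip, fits the symbol rule alone. It encodes a partner of meiotic recombination proteins and is no subunit of the proteasome, so it is in none of the role groups. It is still counted among the 47 members and in the values over all members.

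Muscle RNA was taken from the gastrocnemius of mice on the C57BL/6 strain at 8 weeks of age. Sequencing gave 1 library for Cry2scko and 1 for Cry2flox/flox, called Cry2flox here. Cry2 encodes cryptochrome 2, which represses the clock factors CLOCK and BMAL1, and floxed alleles carry sites at which a recombinase can remove part of a gene. The labels leave scko unexplained, name no recombinase, give no time of day and do not tell a single animal from a pool. Reads summed to 16423884 in Cry2scko and to 18909433 in Cry2flox. Cry2 itself had 133 reads or 8.04 CPM in Cry2scko, against 676 reads or 36.0 CPM in Cry2flox, a log2 ratio of -2.16 (-2.44 to -1.89). The 6 listed markers of fast fibres, the main fibre type of this muscle, had summed CPM (reads scaled to a fixed library size) of 119700 in Cry2scko and 124909 in Cry2flox, and 0 of the 6 was past 2-fold.

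With 1 library per genotype there is no replicate error, so no difference between animals could be tested and no p-value is given. Ratios are Cry2scko over Cry2flox, on the log2 scale, from counts scaled to library size. Each carries a 95% interval in brackets that covers counting error only. The labels mention no molecular identifiers, and PCR copies of a molecule are not independent reads. In whole muscle, fewer cells of a type and less RNA per cell cannot be told apart.

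The proteasome is the protease that degrades most proteins tagged with ubiquitin. Its core is a barrel of stacked alpha and beta rings. The alpha rings form the gate, and Psmb5, Psmb6 and Psmb7 of the beta rings carry the cutting sites. A cap of ATPases and other subunits binds ubiquitin chains, removes them and feeds the unfolded substrate into the core, and separate activators can take the place of the cap. Skeletal muscle is known for its use of this system in protein turnover and wasting. When proteasome activity falls short, the transcription factor NFE2L1 is known to drive many subunit genes together through antioxidant response elements.

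The upstream sequences of the members were read for elements of 2 kinds that bear on the design. The letters TGACNNNGC were taken for the core of the antioxidant response element, and CACGTG for the E-box bound by CLOCK and BMAL1. RefSeq windows of 250 bases before the gene start, on GRCm38.p6 and matched by symbol, were used for 39 of the 47 members. On either strand, TGACNNNGC was found in 5 of the 39 members (12.8%), and in 11.5% of the 27025 genes with such windows. CACGTG was found in 3 of the 39 (7.69%), and in 6.86% of all genes. CCAAT, the box of the factor NF-Y, was found in 14 of the 39 (35.9%), and in 37.5% of all genes. These shares lie close to those of all genes, and a match of letters is no proof of binding. The elements did not overlap each other in any printed window, and RefSeq starts can differ from those of GENCODE. No window was used for Psma8, Psmb1, Psmb2, Psmb7, Psmc3, Psmd3, Psmd7 and Psmg2. Psma8 and Psmg2 share a chromosome that was left out of the member windows, so a failed match is not shown for either. The windows of all genes were not restricted in this way. The 7 windows that hold either of the first pair are shown from 5′ to 3′ on the strand of the gene, with the matched letters in capitals.
Psmb5 (chr14:54617996-54618245, minus strand): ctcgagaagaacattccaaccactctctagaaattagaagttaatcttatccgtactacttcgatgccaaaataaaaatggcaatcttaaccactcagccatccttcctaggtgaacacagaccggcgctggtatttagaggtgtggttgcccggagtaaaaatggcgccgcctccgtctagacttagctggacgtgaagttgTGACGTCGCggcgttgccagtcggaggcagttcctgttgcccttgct
Psmb6 (chr11:70525107-70525356, plus strand): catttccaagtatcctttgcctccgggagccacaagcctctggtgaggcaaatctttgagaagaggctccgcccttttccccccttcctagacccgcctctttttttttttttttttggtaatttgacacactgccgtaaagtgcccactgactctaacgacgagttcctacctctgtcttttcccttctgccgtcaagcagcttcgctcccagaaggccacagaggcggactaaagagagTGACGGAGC
Psmc6 (chr14:45329574-45329823, plus strand): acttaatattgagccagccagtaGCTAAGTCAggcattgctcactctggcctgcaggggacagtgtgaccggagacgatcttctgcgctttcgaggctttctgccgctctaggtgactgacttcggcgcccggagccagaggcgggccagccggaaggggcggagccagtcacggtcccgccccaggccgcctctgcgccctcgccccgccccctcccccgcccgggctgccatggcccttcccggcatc
Psmd12 (chr11:107479278-107479527, plus strand): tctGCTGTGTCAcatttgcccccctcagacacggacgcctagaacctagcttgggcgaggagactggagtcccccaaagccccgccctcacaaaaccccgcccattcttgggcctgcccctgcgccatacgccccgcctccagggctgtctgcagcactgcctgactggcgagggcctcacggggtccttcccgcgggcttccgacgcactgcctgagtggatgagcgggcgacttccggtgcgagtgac
Psmd9 (chr5:123227940-123228189, plus strand): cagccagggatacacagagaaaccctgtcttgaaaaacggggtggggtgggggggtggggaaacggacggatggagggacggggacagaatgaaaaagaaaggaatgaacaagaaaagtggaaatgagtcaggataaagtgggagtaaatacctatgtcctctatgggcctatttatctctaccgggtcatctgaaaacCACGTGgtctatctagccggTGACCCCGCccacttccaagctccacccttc
Psma4 (chr9:54950609-54950858, plus strand): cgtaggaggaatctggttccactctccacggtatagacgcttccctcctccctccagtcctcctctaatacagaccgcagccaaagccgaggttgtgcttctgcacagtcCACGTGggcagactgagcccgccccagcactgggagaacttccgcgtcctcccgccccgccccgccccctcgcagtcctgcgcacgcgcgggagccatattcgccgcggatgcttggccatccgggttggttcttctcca
Psme3 (chr11:101315963-101316212, plus strand): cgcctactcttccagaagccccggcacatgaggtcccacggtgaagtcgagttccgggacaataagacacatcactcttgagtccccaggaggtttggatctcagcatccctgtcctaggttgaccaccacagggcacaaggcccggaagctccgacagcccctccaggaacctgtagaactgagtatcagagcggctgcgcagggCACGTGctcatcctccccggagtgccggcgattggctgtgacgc
In Psmb5 and Psmb6 the matched TGACNNNGC lies close to the start, with its first base at -47 and -9. In Psmc6 and Psmd12 the match is on the opposite strand, with its first base at -227 and -247. Positions count back from the RefSeq start. Psmd9 holds both elements. The log2 ratios of the 5 members with TGACNNNGC ran from -0.15 to 0.06, and those of the 3 members with CACGTG from -0.06 to 0.05. Both ranges lie inside that of the other members. The 13 measured members with CCAAT ran from -0.55, the value of Psmc3ip, which is no subunit, to 0.39. Their median was -0.08. The 25 measured members with a window but without CCAAT had a median of 0.02. For TGACNNNGC the medians were 0.05 with the letters and -0.06 without, and for CACGTG -0.06 with and -0.05 without. Whether any of these letters go with the ratios was not tested.

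The proteasome genes stood at nearly the same level in both libraries. Of the 47 members, 45 had a mean of 0.5 CPM or more, and 0 of the 45 was at least 2-fold higher or lower with an interval that excluded equality. Over all 12832 genes with a mean of 1 CPM or more, 4.88% passed that rule, 3.37% higher and 1.51% lower. The share depends on abundance. Of the 11733 genes within the range of mean CPM of the members, 473 passed it. Of the 4325 genes between the quartiles of the members, 17.8 and 94.6 mean CPM, 65 did. Whether a count of 0 is unusual for 45 genes of such abundance was not tested. At a threshold of 1.5-fold the count of members was still 0, against 10.9% of all genes, 6.56% higher and 4.35% lower. The median log2 ratio was -0.05 over the 45 members and -0.0027 over all genes tested, with quartiles of -0.10 and 0.06 for the members and of -0.17 and 0.18 for all genes. All 47 members together had 50431 reads or 3049 CPM in Cry2scko, against 59276 reads or 3157 CPM in Cry2flox. Their summed ratio was 0.966 (0.955 to 0.977). The choice of scaling alone moves every log2 ratio by up to 0.0228, so the size of this small difference depends on the scaling.

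Small differences larger than counting error were seen in both directions. The interval lay above equality for 6 members and below it for 7, and held equality for 32. With DESeq2 size factors the count above was 4, without Psmc4 and Psme1, and with scaling that leaves out mitochondrial and the 20 most abundant genes the count below was 6, without Psmb7. Among all genes tested, 16.3% lay above and 17.3% below, 33.5% in all, so such intervals were no more common among the members. The 6 higher members were Psmb1, Psmc4, Psmd3, Psme1, Psme2b and Psmd10, and the 7 lower ones were Psma1, Psma3, Psmb7, Psmc6, Psmd1, Psmd6 and Psme4. They belong to different parts of the particle. With the main scaling the beta ring, the ATPases, the other cap subunits and the activators each hold members of both kinds. For the ATPases this rests on Psmc4 and for the beta ring on Psmb7, each lost under another scaling named above. Of the higher activators, Psme1 is lost with DESeq2 size factors. The reads of Psme2b cannot be told with certainty from those of Psme2.

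**Figure D1:**
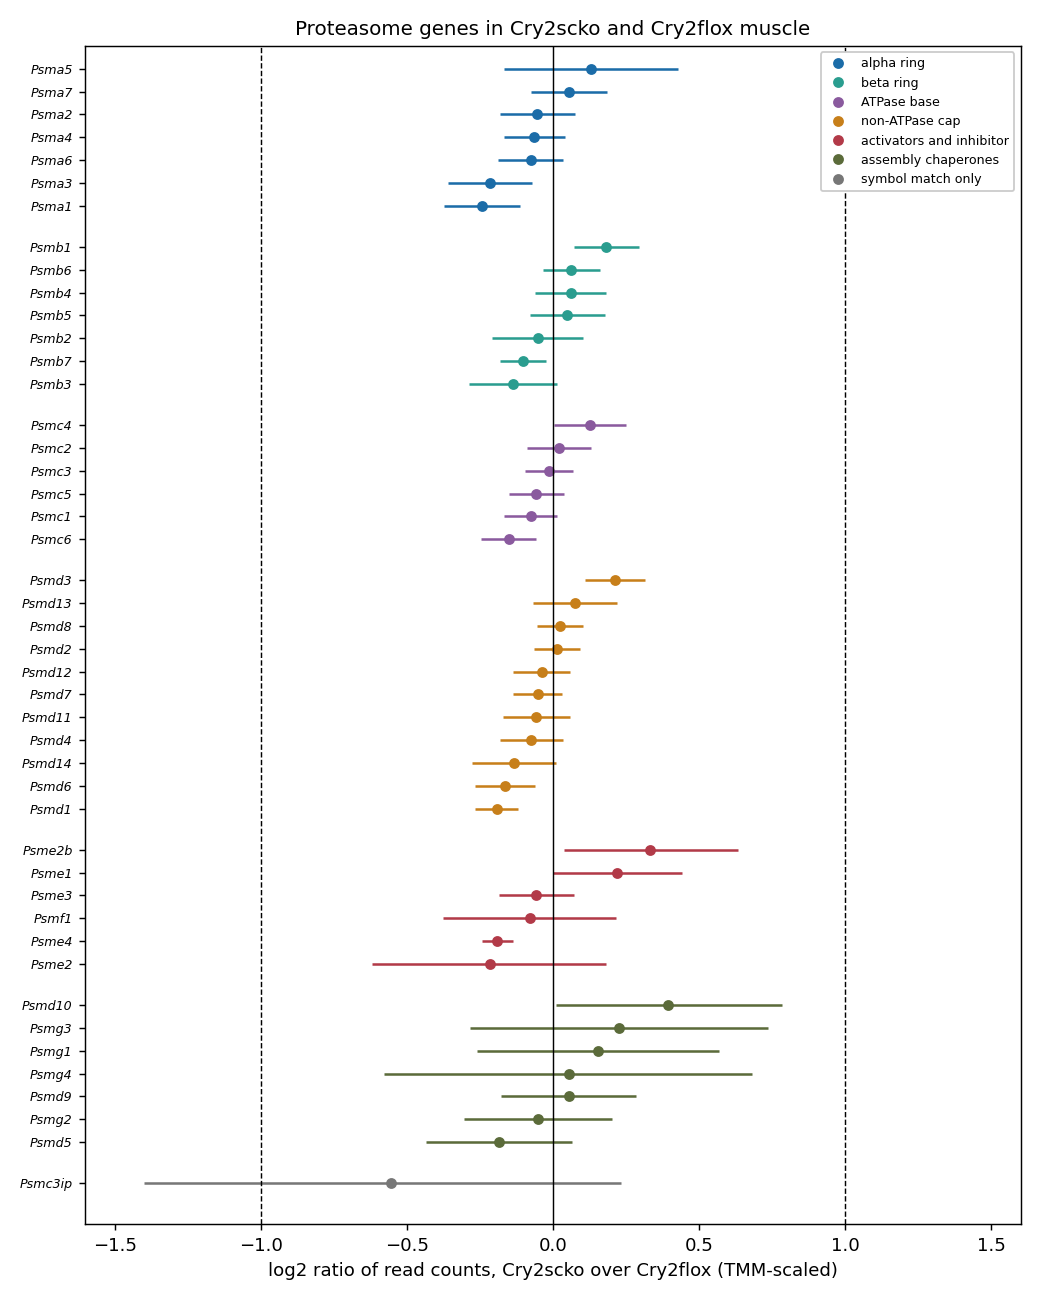
Log2 ratio of read counts, Cry2scko over Cry2flox, of each of the 45 measured members, grouped by role and ordered by ratio. Bars are 95% counting intervals from 1 library per genotype, and dashed lines mark 2-fold. All points lie inside the dashed lines, and the intervals of 13 members exclude 0.

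Genes of the alpha ring, which gates the core, had a median log2 ratio of -0.06, with 0 of 7 measured past 2-fold. Psma1 had the lowest ratio among the core genes, with 846 reads or 51.2 CPM in Cry2scko, against 1137 reads or 60.6 CPM in Cry2flox. Its log2 ratio was -0.24 (-0.37 to -0.11). Psma3 was similar, with 704 reads in Cry2scko and 928 in Cry2flox, at -0.22 (-0.36 to -0.07). Both were a small step lower in the Cry2scko library. The other alpha genes held equality in their intervals. Psma2 had 911 reads in Cry2scko and 1073 in Cry2flox, at -0.05. Psma4 had 1369 reads in Cry2scko and 1624 in Cry2flox, at -0.06. Psma6 had 1203 reads in Cry2scko and 1439 in Cry2flox, at -0.08. These 3 genes thus lay within a few hundredths of each other. Psma7 had 937 reads in Cry2scko and 1024 in Cry2flox, at 0.06 (-0.07 to 0.18). Psma5, on far fewer reads, had 187 reads in Cry2scko and 194 in Cry2flox, at 0.13 (-0.17 to 0.43), the highest ratio among the 7 measured genes of the ring. Summed over the ring, the log2 ratio was -0.09 (-0.13 to -0.04).

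Genes of the beta ring, which holds the cutting sites, had a median log2 ratio of 0.05, again with 0 of 7 measured past 2-fold. Psmb5 (ENSMUSG00000022193, GRCm38 chr14:54614119-54618022, minus strand) encodes the subunit that cuts after hydrophobic residues. It had 958 reads or 57.9 CPM in Cry2scko, against 1051 reads or 56.0 CPM in Cry2flox, at 0.05 (-0.08 to 0.18). Psmb6 (ENSMUSG00000018286, GRCm38 chr11:70525367-70527858), whose product cuts after acidic residues, had 1631 reads or 98.6 CPM in Cry2scko, against 1773 reads or 94.4 CPM in Cry2flox, at 0.06 (-0.04 to 0.16). For both of these catalytic genes the interval held equality. Psmb7 (ENSMUSG00000026750, GRCm38 chr2:38588036-38644087), whose product cuts after basic residues, was the most read of the ring, with 2327 reads or 141 CPM in Cry2scko, against 2836 reads or 151 CPM in Cry2flox. Its log2 ratio of -0.10 (-0.18 to -0.02) was below equality by little more than counting error. Among the subunits without a cutting site, Psmb1 had 1307 reads or 79.0 CPM in Cry2scko, against 1307 reads or 69.6 CPM in Cry2flox, the highest ratio among the 7 measured genes of the ring at 0.18 (0.07 to 0.29). The lowest was Psmb3, with 661 reads in Cry2scko and 825 in Cry2flox, at -0.14 (-0.29 to 0.01). Psmb2 was at -0.05 and Psmb4 at 0.06. The summed log2 ratio of the ring was 0.0072 (-0.03 to 0.05), which holds equality, while that of the alpha ring lay below it.

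The ATPases unfold substrates and open the gate of the core. Their median log2 ratio was -0.03, with 0 of 6 past 2-fold. Psmc4 was highest, with 1070 reads in Cry2scko and 1113 in Cry2flox, at 0.13 (0.0039 to 0.25). Psmc6 was lowest, with 1640 reads in Cry2scko and 2067 in Cry2flox, at -0.15 (-0.25 to -0.06). Those were the 2 ATPase genes whose intervals excluded equality. Psmc1, whose product helps to open the gate, had 1821 reads in Cry2scko and 2179 in Cry2flox, at -0.08 (-0.17 to 0.01). Psmc2 was at 0.02, Psmc3 at -0.01 and Psmc5 at -0.06. The summed log2 ratio of the ATPases was -0.04 (-0.08 to 0.0018).

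The other cap subunits recognise and release ubiquitin chains and hold the cap together. Their median log2 ratio was -0.05, with 0 of 11 past 2-fold. Psmd3, a scaffold subunit of the lid, had the highest ratio, with 1584 reads or 95.8 CPM in Cry2scko, against 1553 reads or 82.7 CPM in Cry2flox, at 0.21 (0.11 to 0.31). Psmd1, a large scaffold of the cap base, had the lowest, with 2694 reads or 163 CPM in Cry2scko, against 3495 reads or 186 CPM in Cry2flox, at -0.19 (-0.27 to -0.12). Psmd6, another lid subunit, had 1407 reads in Cry2scko and 1789 in Cry2flox, at -0.16 (-0.27 to -0.06). These were the 3 of the 11 whose intervals excluded equality. Psmd14, the enzyme that cuts off ubiquitin chains, had 713 reads in Cry2scko and 888 in Cry2flox, at -0.13 (-0.28 to 0.01). Its partner Psmd7 had 2099 reads in Cry2scko and 2470 in Cry2flox, at -0.05 (-0.14 to 0.03). The ubiquitin receptor Psmd4 was at -0.07 (-0.18 to 0.03) and the scaffold Psmd2, which docks shuttle proteins, at 0.01 (-0.06 to 0.09). The remaining lid genes Psmd8, Psmd11, Psmd12 and Psmd13 lay between -0.06 and 0.08. The summed log2 ratio of the 11 genes was -0.04 (-0.07 to -0.01).

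Of the 6 genes of activators and the inhibitor, 0 passed 2-fold, and the median log2 ratio was -0.07. Psme4 (ENSMUSG00000040850, GRCm38 chr11:30771726-30880361) encodes a large single-chain activator known for histone turnover and was the most read of all members. It had 4941 reads or 299 CPM in Cry2scko, against 6401 reads or 341 CPM in Cry2flox, at -0.19 (-0.24 to -0.14). Psme3, the nuclear activator, had 919 reads in Cry2scko and 1085 in Cry2flox, at -0.06 (-0.18 to 0.07). The inhibitor Psmf1 had 176 reads in Cry2scko and 211 in Cry2flox, at -0.08 (-0.38 to 0.22). So the most read activator was slightly lower in Cry2scko, and no difference was detectable for the inhibitor at this depth. Psme1 and Psme2 encode the paired activator induced by interferon gamma and lie 5911 bases apart on chromosome 14. Psme1 had 347 reads in Cry2scko and 338 in Cry2flox, at 0.22 (0.00075 to 0.44). Psme2, with the lowest ratio of the group, had 94 reads in Cry2scko and 124 in Cry2flox, at -0.21 (-0.62 to 0.18). Psme2b, with the highest, had 201 reads in Cry2scko and 181 in Cry2flox, at 0.33 (0.04 to 0.63). Psme2b is a copy of Psme2 on chromosome 11 whose transcript matches it at 99.4% over 794 bases, so their reads cannot be assigned with certainty. Together Psme2 and Psme2b had 295 reads in Cry2scko and 305 in Cry2flox, at 0.14 (-0.10 to 0.37), which holds equality.

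Assembly chaperones had the fewest reads, between 43 and 300 in Cry2scko and between 47 and 328 in Cry2flox, and a median log2 ratio of 0.06 with 0 of 7 past 2-fold. Psmd10 (ENSMUSG00000031429, GRCm38 chrX:140948429-140956728), a chaperone of the ATPase ring also known as gankyrin, had the highest ratio of all 45 members. It had 124 reads or 7.50 CPM in Cry2scko, against 107 reads or 5.70 CPM in Cry2flox, at 0.39 (0.01 to 0.78). The lower bound of that interval is next to equality. Psmd5, another chaperone of the ATPases, was lowest of the group, with 238 reads in Cry2scko and 307 in Cry2flox, at -0.18 (-0.43 to 0.06). Psmd9, a chaperone of the same ring, had 300 reads in Cry2scko and 328 in Cry2flox, at 0.05 (-0.18 to 0.28). The pairs Psmg1 with Psmg2 and Psmg3 with Psmg4 help the alpha ring to form. Psmg1 had 99 reads in Cry2scko and 101 in Cry2flox, at 0.15 (-0.26 to 0.57), and Psmg2 had 239 reads in Cry2scko and 281 in Cry2flox, at -0.05 (-0.31 to 0.20). Psmg3 had 68 reads in Cry2scko and 66 in Cry2flox, at 0.23 (-0.28 to 0.74), and Psmg4 had 43 reads in Cry2scko and 47 in Cry2flox, at 0.06 (-0.58 to 0.68). All 4 of these intervals held equality.

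Psma8 and Psmb11 were under the filter on low counts. Psma8 takes the place of Psma7 in the core of male germ cells, and had 2 reads in Cry2scko and 2 in Cry2flox, at 0.18 (-3.60 to 3.97). Of 5 germ cell markers, Sycp3, Prm1 and Tnp1 were at 0 in both libraries. Dazl had 9 reads in Cry2scko and 10 in Cry2flox, and Ddx4 had 0 reads in Cry2scko and 4 in Cry2flox. Psmb11 is the catalytic subunit of cortical thymic epithelium and lies 3410 bases from Psmb5 on chromosome 14. It had 0 reads in both libraries, which allows up to 0.181 CPM in Cry2scko and 0.160 CPM in Cry2flox. Of 3 thymic epithelial markers, Foxn1 and Prss16 were also at 0 in both, and Ccl25 had 76 reads in Cry2scko and 92 in Cry2flox. Psmc3ip had 22 reads in Cry2scko and 37 in Cry2flox, at -0.55 (-1.40 to 0.23), the lowest ratio of the 45 measured genes and one whose interval held equality.

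Levels per length differed far more between members than between libraries. FPKM values, which scale fragments to gene length and library size, ran among measured genes in the alpha ring from 6.85 for Psma3 to 58.8 for Psma2 in Cry2scko, and from 6.67 for Psma5 to 60.1 for Psma2 in Cry2flox. In the beta ring they ran from 15.7 for Psmb3 to 76.8 for Psmb1 in Cry2scko, and from 17.0 for Psmb3 to 66.7 for Psmb1 in Cry2flox. The ATPases spanned 15.0 FPKM for Psmc2 to 73.0 FPKM for Psmc1 in Cry2scko, and 14.6 to 75.9 FPKM for the same genes in Cry2flox. Subunits that enter the particle in equal number thus differed in FPKM by 4.86 times among the ATPases and 8.57 times in the alpha ring in Cry2scko, and by 5.21 and 9.02 times in Cry2flox. Among the other cap subunits Psmd7 was highest, at 79.9 FPKM in Cry2scko and 81.7 FPKM in Cry2flox. The lowest of them was Psmd11 in Cry2scko, at 6.73 FPKM, and Psmd13 in Cry2flox, at 6.78 FPKM. Activators spanned 1.04 FPKM for Psmf1 to 32.8 FPKM for Psme4 in Cry2scko, and 1.08 to 37.0 FPKM for the same genes in Cry2flox. The assembly chaperones, which act on the particle without staying in it, had a median of 3.37 FPKM in Cry2scko and 2.99 FPKM in Cry2flox, against 32.0 and 30.2 FPKM for the beta ring in the same libraries. The highest of the chaperones, Psmg2, had 13.7 FPKM in Cry2scko and 14.0 FPKM in Cry2flox, and the lowest, Psmg3, had 1.10 and 0.923 FPKM.

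The order of the members by FPKM was nearly the same in both libraries, with a Spearman correlation of 0.994 across the 45 genes, which share gene models and are not replicates. The order within the core is less certain than its stability between libraries, because it depends on the gene lengths used. Lengths implied by the FPKM values were from 0.225 to 2.69 times the merged exon length of GENCODE M21 among the members. With the GENCODE lengths, the rank correlation with FPKM over the 14 measured core genes was 0.481 in Cry2scko and 0.499 in Cry2flox. Psma2, the top of the alpha ring by FPKM, had an implied length of 944 bases against 3673 bases in GENCODE. Ratios between libraries do not depend on that length.

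**Figure D2:**
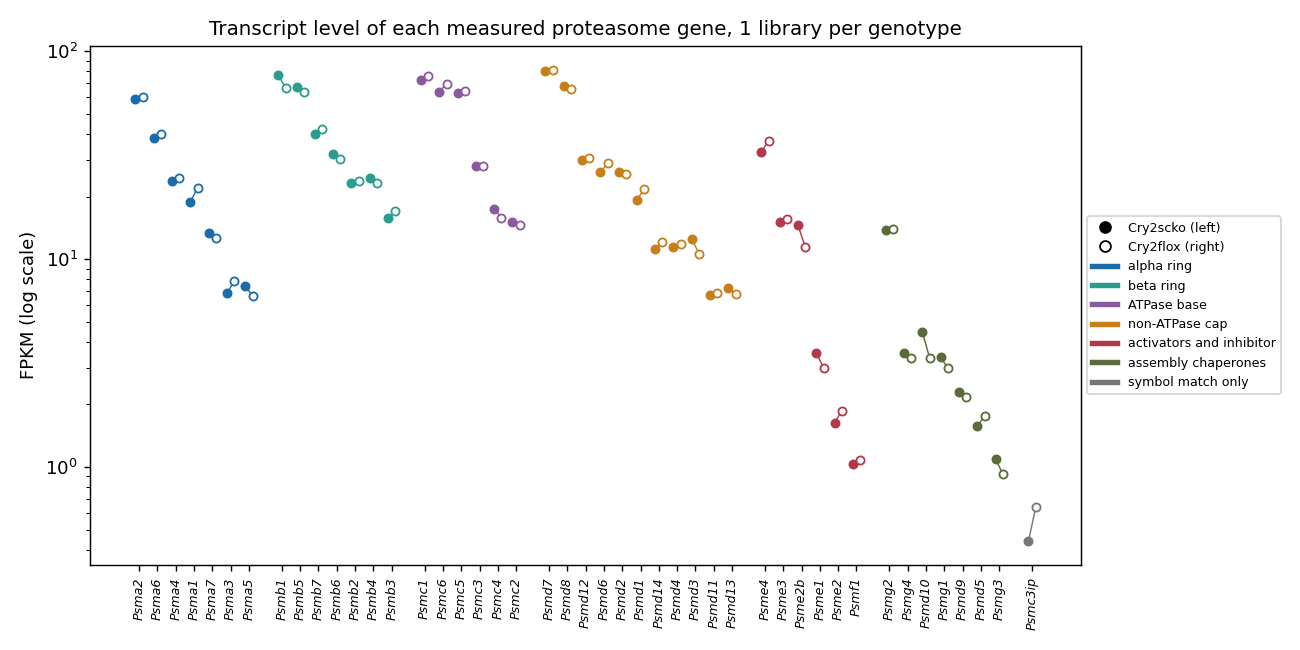
FPKM of each of the 45 measured members on a log scale, by role, with Cry2scko as filled points on the left and Cry2flox as open points on the right of each pair (1 library each). Core and cap genes lie between 6.67 and 81.7 FPKM in either library, and the assembly chaperones between 0.923 and 14.0 FPKM.

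The ratios of the members were also less spread out than those of all genes. Within 1.2-fold of equality lay 42 of the 45 measured members (93.3%), and 64.7% of all genes tested. Within 1.5-fold lay 45 of the 45 members, and 87.2% of all genes. The 3 outside 1.2-fold were Psme2b, Psmd10 and Psmc3ip, each below 11 mean CPM. Abundance bears on this, since well-read genes have less counting error. Between 17.8 and 94.6 mean CPM, the quartiles of the members, all 23 members lay within 1.2-fold, and 80.9% of the 4325 genes in that range. The quartiles there were -0.07 and 0.06 for the members and -0.14 and 0.10 for all genes, and the medians were -0.05 and -0.02. These are descriptions of 2 libraries, and whether the narrow spread is particular to proteasome genes was not tested.

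**Figure D3:**
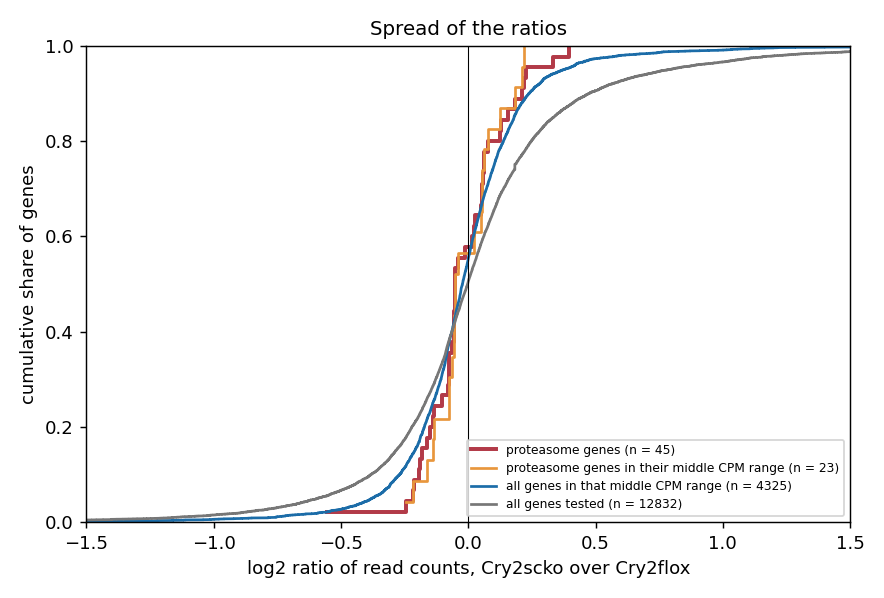
Cumulative share of genes by log2 ratio, Cry2scko over Cry2flox, for the 45 measured members, the 23 of them between 17.8 and 94.6 mean CPM, the 4325 genes in that range, and all 12832 genes tested. The curves of the members are the steepest, with 93.3% within 1.2-fold, and cross the others near 0.

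Genes that work with the proteasome under other symbols also lay within 1.5-fold of equality. Of 9 subunits and maturation factors measured, 0 passed 2-fold and 0 passed 1.5-fold, with a median of -0.03. Over all genes tested, 4.88% passed 2-fold and 10.9% passed 1.5-fold. The interval lay above equality for 3 of the 9 and below it for 2, and held it for 4. Among all genes 33.5% had intervals that excluded equality. Pomp, which matures the beta ring, had 724 reads in Cry2scko and 824 in Cry2flox, at -0.0034 (-0.15 to 0.14). Fbxo7, a binding partner of the inhibitor Psmf1, was highest, with 147 reads in Cry2scko and 124 in Cry2flox, at 0.43 (0.07 to 0.79). Txnl1, a thioredoxin bound to the cap, was lowest, with 794 reads in Cry2scko and 993 in Cry2flox, at -0.14 (-0.28 to -0.0035). The small cap subunit Sem1 was at 0.26 (0.12 to 0.40), Akirin2 at 0.27 (0.06 to 0.49) and the scaffold Ecpas at -0.13 (-0.18 to -0.07).

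The list of regulators of proteasome gene transcription also held the proteasome partner Zfand2a and the segregase Vcp with its cofactor Ufd1. Over that list the median log2 ratio was -0.07, with 0 of 12 past 2-fold or 1.5-fold. The interval lay above equality for 0 of the 12 and below it for 4, and held it for 8. Nfe2l1 had 2989 reads or 181 CPM in Cry2scko, against 3332 reads or 177 CPM in Cry2flox, at 0.03 (-0.05 to 0.10). Its protease Ddi2 was at 0.06 (-0.06 to 0.17) and its deglycosylase Ngly1 at -0.06 (-0.20 to 0.08). All 3 intervals held equality. Vcp, the segregase that extracts ubiquitinated proteins, had 3649 reads in Cry2scko and 4953 in Cry2flox, at -0.26 (-0.32 to -0.20), and its cofactor Ufd1 was at -0.34 (-0.55 to -0.14). The lowest was Zfand2a, an arsenite-inducible partner of the proteasome, with 161 reads in Cry2scko and 239 in Cry2flox, at -0.39 (-0.68 to -0.09). The highest was Bach1, a repressor at antioxidant response elements, with 464 reads in Cry2scko and 492 in Cry2flox, at 0.10 (-0.09 to 0.28).

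Among genes of ubiquitin supply and substrate shuttles, the ubiquitin gene Ubb had 4882 reads or 295 CPM in Cry2scko, against 5318 reads or 283 CPM in Cry2flox, at 0.06 (0.0034 to 0.12). Rps27a, which encodes ubiquitin joined to a ribosomal protein, had 85 reads in Cry2scko and 118 in Cry2flox, at -0.29 (-0.71 to 0.12). The activating enzyme Uba1 was at -0.08 (-0.17 to 0.01) and Uba6, which also activates ubiquitin, at 0.24 (-0.09 to 0.56). The interval of Ubb lay just above equality, and those of the other 3 genes held it. The shuttles Rad23b, Ubqln1 and Ubqln2 lay between 0.0066 and 0.04, and Ubqln4 was at -0.09 (-0.20 to 0.01).

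The inducible subunits that replace the constitutive cutting sites differed more. Psmb8 takes the place of Psmb5, Psmb9 that of Psmb6 and Psmb10 that of Psmb7, mostly in immune cells or after interferon. Psmb8 had 137 reads or 8.28 CPM in Cry2scko, against 73 reads or 3.89 CPM in Cry2flox, at 1.09 (0.67 to 1.52). Psmb9 had 81 reads or 4.90 CPM in Cry2scko, against 34 reads or 1.81 CPM in Cry2flox, at 1.42 (0.84 to 2.06). Both passed the 2-fold rule, and Psmb10, with 114 reads in Cry2scko and 118 in Cry2flox, at 0.13 (-0.25 to 0.52), did not. They were minor beside the constitutive genes. As a share of the FPKM of its pair, Psmb8 made up 3.14% in Cry2scko and 1.55% in Cry2flox, Psmb9 2.39% in Cry2scko and 0.936% in Cry2flox, and Psmb10 12.1% in Cry2scko and 10.4% in Cry2flox. Of 8 lymphocyte markers, 7 were at least 2-fold higher in Cry2scko and Cd4 was at 0.43 (-0.03 to 0.91). None was at 0, and together they had 148 CPM in Cry2scko and 60.7 CPM in Cry2flox. Ptprc, the most abundant, is not confined to lymphocytes. The other 7 summed to 95.4 CPM in Cry2scko and 37.2 CPM in Cry2flox. Macrophage markers had 0 of 6 past 2-fold, none at 0, and sums of 107 CPM in Cry2scko and 89.7 CPM in Cry2flox. Lyz2 alone carried the higher sum, and the other 5 summed to 38.9 CPM in Cry2scko and 43.1 CPM in Cry2flox. Of these, Mrc1 was at -0.39 (-0.64 to -0.15) and C1qa at -0.45 (-0.78 to -0.13). The rest had ratios above 1 with intervals that held equality. They were Adgre1 at 0.76 (-0.05 to 1.62), Cd68 at 0.43 (-0.15 to 1.03) and Csf1r at 0.19 (-0.11 to 0.49). The part of these cells in the values of Psmb8 and Psmb9 was not tested. Psmb8 and Psmb9 also share exon bases with genes on the opposite strand, Psmb9 with Tap1, and the sources do not say whether counting used strand.

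**Figure D4:**
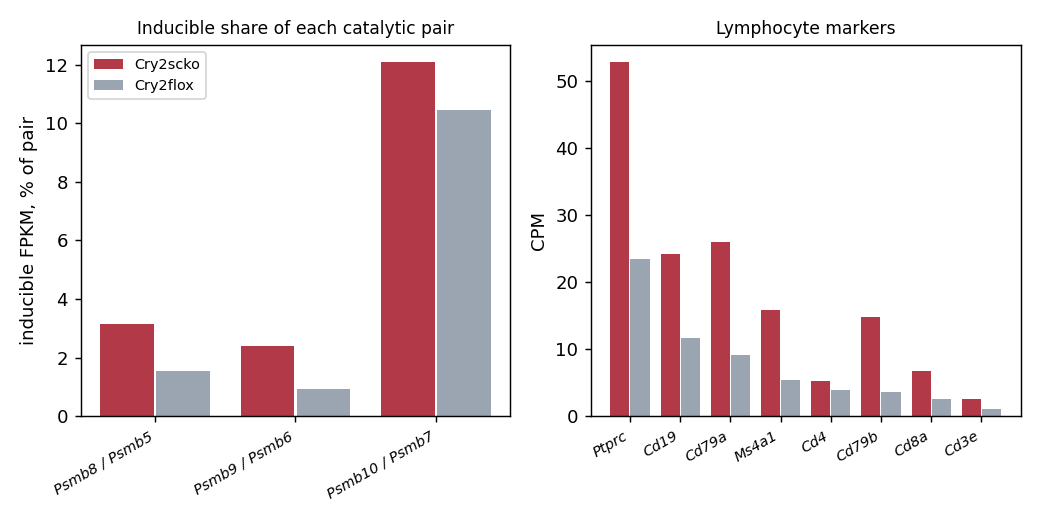
Left, FPKM of each inducible catalytic subunit as a percentage of the FPKM of its pair with the constitutive one. Right, CPM of 8 lymphocyte markers. Bars are single libraries without error bars, Cry2scko left of Cry2flox. The share of Psmb8 was 3.14% in Cry2scko against 1.55% in Cry2flox, and 7 of the 8 lymphocyte markers were at least 2-fold higher in Cry2scko.

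Other cell and fibre types differed between the libraries as well. Of 6 slow-fibre markers, 4 were at least 2-fold higher, with none at 0 and sums of 2134 CPM in Cry2scko and 1010 CPM in Cry2flox. Of 5 tendon markers, 4 were at least 2-fold lower, with none at 0 and sums of 73.0 CPM in Cry2scko and 164 CPM in Cry2flox. Of 5 adipocyte markers, 1 was at least 2-fold lower, with none at 0 and sums of 293 CPM in Cry2scko and 309 CPM in Cry2flox. Fabp4 made up most of these sums, and the other 4 summed to 18.99 CPM in Cry2scko and 31.4 CPM in Cry2flox. Adipoq was at -1.27 (-1.94 to -0.67) and Cfd at -0.74 (-0.98 to -0.50). Plin1 at -0.45 (-0.99 to 0.06) and Lep at 0.74 (-0.64 to 2.26) held equality. The part of these cell and fibre types in the small ratios of the proteasome genes was not tested.

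Reads of some members can belong to other genes. Near-identical transcripts at another locus, at 95% identity or more over at least 200 bases, were found for 12 of the 47 members, mostly processed pseudogenes. The copy with the most reads outside the member list was Gm8394, a copy of Psma5, with 127 reads in Cry2scko and 123 in Cry2flox, so the level of Psma5 is uncertain. Exon bases were shared with another gene for 13 members. Among them were Psmb7, Psmd1, Psmd3, Psme1 and Psme2b, whose intervals excluded equality. Without the 13, 0 of 32 members passed 2-fold and the median log2 ratio was again -0.05.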

How the data were processed

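RNA of gastrocnemius muscle was sequenced from total RNA, 1 library per genotype. The tools named are CASAVA, HISAT2 (2.0.4) and StringTie (1.3.0), with the build GRCm38, per the submitters' processing notes. The read counter, annotation release and strand setting are not given in the sources used here. The authors deposited whole-number read counts per Ensembl gene, not normalised, and FPKM values, per the file headers. Lengths implied by counts and FPKM matched between libraries, to within 0.1%, for 100% of the 16284 genes read in both.

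Names, positions and exons came from GENCODE M21 (GRCm38), which named 34344 of the 34745 identifiers. Upstream windows came from RefSeq on GRCm38.p6. Of 33 listed partner genes, 32 were matched. Some genes of ubiquitin supply are not reported here, so no count or median is given over that list. Counts were scaled by TMM (edgeR 4.0.16, R 4.3.3), with factors of 1.01 for Cry2scko and 0.993 for Cry2flox, so that 1 CPM is 16.5 and 18.8 reads. Log2 ratios had 0.5 reads added to each raw count. Intervals are exact Clopper-Pearson intervals (95%) of the share of reads in Cry2scko, converted to ratios. A limit for 0 reads takes 3 reads. Calls needed a mean CPM of 1, medians a mean CPM of 0.5. Copies were sought with blastn 2.17.0. Python 3.11.15, numpy 2.4.6, scipy 1.17.1, pandas 2.3.3 and matplotlib 3.10.9 were used. Calls and intervals were run on counts simulated with counting error alone (Poisson). Such counts hold no differences between animals and no PCR copies, so they cannot test the intervals against either.

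All members are accounted for. Named by rule are the catalytic subunits, the extremes of each role group by ratio or FPKM, and members with up to 3 reads. Of the partner lists these are the extremes, those past 1.5-fold, Pomp, Nfe2l1 and the inducible subunits. Not each of them is given with reads, CPM, FPKM and ratio together. Other genes named, members beyond counting error included, were chosen after their values were seen. Members and lists were chosen with earlier results of these data known. Alternatives were other scalings (DESeq2 1.42.0 among them), FPKM with 0.1 added, other filters, 5 reads added, a 1.5-fold threshold, and leaving out overlapping genes, genes with copies or Psmc3ip. The last pair of these was added after the data were seen.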

Additional observations from a re-analysis of the deposited data

How the results depend on the processing

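The count of members past the rule was 0 under each alternative that was run, 1.5-fold included. The median log2 ratio of the members lay between -0.06 and -0.03, and the medians of the 6 role groups kept their sign under the scalings, filters, FPKM, added reads and exon-sharing settings. They were not computed without members with a copy or without Psmc3ip. Among their larger moves, the median of the activators and inhibitor, -0.07, was -0.13 without genes that share exon bases, and that of the ATPases, -0.03, was -0.01 under scaling without mitochondrial and abundant genes. All 464 values of single genes under alternatives stayed within their counting intervals, but most of this was fixed in advance. The filters and the exon-sharing setting reuse the main ratio of a gene. The scalings shift every log2 ratio by up to 0.0228, less than any of these intervals extends to either side. Only FPKM and the added reads could shift genes by different amounts. The summed log2 ratio of the members, -0.05, was -0.030 under total-count scaling, -0.027 under scaling without mitochondrial and the 20 most abundant genes, and -0.0077 from summed FPKM, which weights short genes more. Over all genes, 432 were higher and 194 lower. Without a filter there were 789 and 396, because more genes enter, and at a mean CPM of 5 or more 175 and 76, because fewer do. At 1.5-fold there were 842 and 558 by construction. Without genes that share exon bases there were 270 and 121, as fewer genes are tested. With FPKM 116 were lower, and the cause was not tested. Leaving out a library is impossible with 1 per genotype. No paired analysis was possible because each genotype has a single library.

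Depth limits the assembly chaperones most, whose intervals extend by a median of 0.39 to either side on the log2 scale, against 0.13 over all measured members. Levels between genes also depend on the gene lengths behind the FPKM values.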
